A study of Mus musculus with 10 samples.

Results

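Out of 55487 genes in the count table, 10 genes of the leukotriene and prostaglandin pathways were described across 10 primary pancreatic tumours of KPF mice, in which pancreatic cancer is driven by engineered alleles. They were taken by symbol: the leukotriene B4 receptor gene Ltb4r1; the leukotriene enzymes and helper Alox5, Alox5ap, Lta4h and Ltc4s; the lipoxygenase Alox15; and the prostaglandin genes Ptgs1, Ptgs2, Ptges and Ptger4. All 10 symbols matched 1 row each, and all 10 had enough counts to be tested. Ltb4r1 had been picked because an earlier fit of these same libraries by DESeq2 called it lower in one group, so its group difference is given below as a description with no test. The other 9 were added as genes of the same pathways.

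Of the tumours, 5 are labelled Grem1∆/∆ and 5 are labelled Grem1wt/wt, where Grem1 encodes the secreted BMP antagonist Gremlin 1. Mice of the labelled-deleted group were given tamoxifen, 100 mg per kg of body weight daily for 5 days from 5 weeks of age. Mice of the wild-type group had peanut oil in its place, so deletion and tamoxifen cannot be told apart. All animals carried the KPF alleles on a C57BL/6J background and were 6 to 12 weeks old when used. The sources used here do not give the driver of the recombinase, which part of Grem1 it removes, or the mouse behind each tumour. The titles carry a tumour code whose leading part takes 5 forms, 3 of them shared by 8 tumours of both groups, while labelled-deleted tumours 1 and 4 have 1 form each to themselves; what the code stands for is not stated. The p-values measure the spread between these 10 tumours. The material is called bulk tumour in one label and sorted cells in another.

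Libraries held between 10159891 and 18571519 estimated counts. Levels are given as CPM, the usual counts scaled by library size. Grem1 itself did not mark the labelled deletion: it spanned 6.83 to 110 CPM there and 3.97 to 43.1 CPM in wild-type tumours, so groups are named by label alone. Epithelial, fibroblast, macrophage and endothelial markers were all present in every library. Labelled-deleted tumour 1 had the lowest sums of all 4 of these marker lists. The fibroblast sum was mostly Col1a1 and Col1a2, which were lowest in that tumour, as were Dcn, Lum and Dpt. Pdgfrb went the other way, with its highest value of all tumours there, 353 CPM. Pdgfra, at 227 CPM in that tumour, was above the highest wild-type value, 137 CPM. Labelled-deleted tumour 2 held 2423 CPM of intestinal epithelium markers, against at most 9.88 CPM in any other library. In bulk tissue, fewer cells of a type and less RNA per cell cannot be told apart.

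Leukotrienes and prostaglandins are lipid mediators made from arachidonic acid that phospholipases free from membranes. In the leukotriene branch, 5-lipoxygenase (Alox5) with its activating protein (Alox5ap) makes the unstable leukotriene A4, which leukotriene A4 hydrolase (Lta4h) turns into leukotriene B4 and leukotriene C4 synthase (Ltc4s) into the cysteinyl leukotrienes. Leukotriene B4 attracts and activates neutrophils and other leukocytes through its high-affinity receptor, the product of Ltb4r1. In the prostaglandin branch, the cyclooxygenases Ptgs1, mostly constitutive, and Ptgs2, induced by inflammation, feed synthases such as Ptges, whose product prostaglandin E2 acts on receptors including that of Ptger4.

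Promoter letters are shown for 3 genes on which the results turn: Ltb4r1, which was chosen for its group difference, and Ptgs1 and Ptges, whose levels varied together over the tumours. Each is the 250 bases before the RefSeq start on build GRCm38.p6, written 5′ to 3′ on the gene's strand. Capitals mark GC boxes (GGGCGG on either strand) and the ETS-type letters GAGGAAGT (either strand).
Ltb4r1, chr14:55765712-55765961, plus strand: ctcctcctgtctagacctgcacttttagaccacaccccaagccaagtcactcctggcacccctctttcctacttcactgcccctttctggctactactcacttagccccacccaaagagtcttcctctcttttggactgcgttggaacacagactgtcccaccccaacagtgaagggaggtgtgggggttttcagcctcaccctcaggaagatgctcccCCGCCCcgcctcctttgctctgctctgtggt
Ptgs1, chr2:36230176-36230425, plus strand: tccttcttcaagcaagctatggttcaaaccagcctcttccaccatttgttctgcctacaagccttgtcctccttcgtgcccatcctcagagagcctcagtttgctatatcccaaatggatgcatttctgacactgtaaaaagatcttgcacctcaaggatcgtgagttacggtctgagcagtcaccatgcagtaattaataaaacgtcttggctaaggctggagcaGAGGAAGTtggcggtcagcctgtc
Ptges, chr2:30903298-30903547, minus strand: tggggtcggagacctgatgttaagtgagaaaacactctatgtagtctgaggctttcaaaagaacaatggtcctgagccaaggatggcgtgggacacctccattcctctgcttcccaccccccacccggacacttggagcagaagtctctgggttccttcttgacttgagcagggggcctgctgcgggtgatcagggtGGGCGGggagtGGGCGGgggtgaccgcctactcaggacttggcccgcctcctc
Of the 10 genes, 8 were in the promoter table. A GC box stood in the windows of Alox5, Ltb4r1, Ptger4, Ptges and Ptgs2, and in 32.9% of 27025 promoters. The ETS-type letters stood in the window of Ptgs1, and in 2.44% of all promoters. The CCAAT letters were found for Lta4h and Ptger4, and in 34.5% of all. TATAAA (in 13.0% of all), TGACG (17.9%), TGACGTCA (1.62%) and CACGTG (6.05%) were in none of the 8 windows. These are matches of letters and say nothing of binding.

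The receptor gene Ltb4r1 was lower in every labelled-deleted tumour than in every wild-type tumour. The labelled-deleted tumours held 2.94, 2.34, 4.27, 2.62 and 2.76 CPM, and the wild-type tumours held 8.73, 4.65, 8.34, 6.96 and 7.56 CPM. The highest labelled-deleted value, in tumour 3, lay just under the lowest wild-type value, in tumour 2, and the other labelled-deleted tumours were close to each other. The mean was 2.99 ± 0.75 CPM in labelled-deleted tumours and 7.25 ± 1.61 CPM in wild-type tumours (SD, n = 5 each), a log2 fold change of -1.28 (SE 0.23) in edgeR. This gap chose the gene and supports nothing by itself. It was the only one of the 10 genes whose groups did not overlap, where 0.435% of all genes tested had every labelled-deleted tumour below every wild-type tumour. A log2 fold change this low or lower was found for 48 of 16565 genes (0.29%). These levels rest on 33 to 52 estimated counts per labelled-deleted library and 51 to 114 per wild-type library. Ltb4r1 lies on the plus strand of chromosome 14, from 55765962 to 55768494 in GRCm38 (mm10), with 2 exons, and no exon of another annotated gene overlaps them. Its neighbour Ltb4r2, the low-affinity leukotriene B4 receptor gene, was too low to test, with 2, 58, 7, 10 and 13 counts in labelled-deleted libraries and 3, 8, 1, 8 and 5 counts in wild-type libraries.

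**Figure D1:**
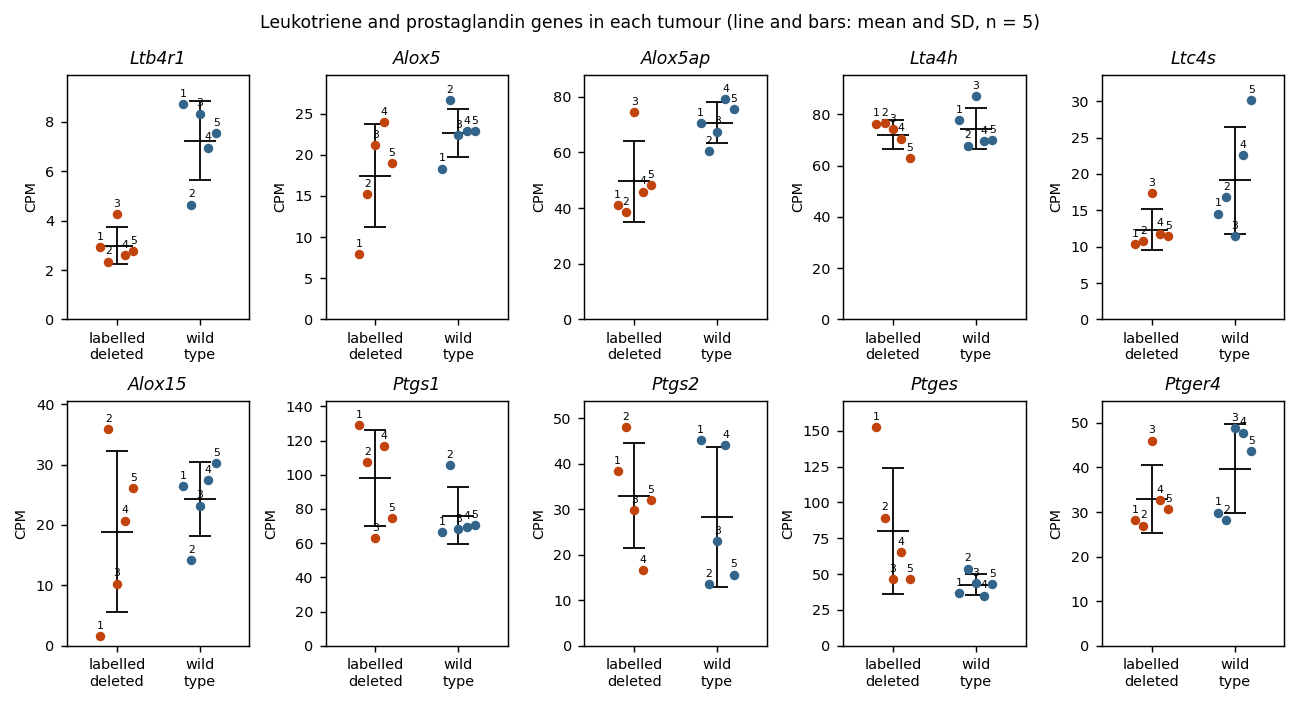
CPM (y axis, from 0) of each of the 10 genes in labelled-deleted tumours (left, orange) and wild-type tumours (right, blue), with tumour numbers beside the points and the mean and SD (n = 5) as black lines. The 2 groups are apart for Ltb4r1 alone, and labelled-deleted tumour 1 is at the extreme for Alox5, Alox15, Ptgs1 and Ptges.

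By the quasi-likelihood test of edgeR, 0 of the other 9 genes had an adjusted p under 0.05, as had 0 of 16565 genes tested (0%). At an unadjusted p under 0.05, 1 of the 9 was higher (Ptges) and 2 were lower (Alox5ap and Ltc4s) in labelled-deleted tumours, where 3.47% of all genes were higher and 2.46% lower. Limma-voom called 0 genes and DESeq2 called 7 of 31198 (0.0224%), with none of the other 9 among them. Over the 9 genes the median log2 fold change was -0.27, with 3 positive and 6 negative, while over all genes tested the median was 0.03. In simulated data of this size, edgeR recovered 44% of genes changed 2-fold and 4% of genes changed 1.5-fold, so a change of the size measured here could be missed.

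Among the leukotriene genes, Alox5ap, which encodes the activating protein of 5-lipoxygenase, had 40.9, 38.39, 74.5, 45.9 and 48.3 CPM in labelled-deleted tumours and 70.5, 60.6, 67.5, 79.2 and 75.6 CPM in wild-type tumours. In 4 of 5 labelled-deleted tumours it was below every wild-type tumour, and tumour 3 was among the highest of all. Its log2 fold change was -0.51 (SE 0.17; edgeR adjusted p = 0.759), and the unadjusted p was 0.0317 when all assignments of log2 CPM were permuted (exact, two-sided). The log2 fold change was -0.71 without labelled-deleted tumour 3 and -0.33 without labelled-deleted tumours 1 and 2. An antisense gene, Gm19719, shares 189 exon bases with Alox5ap and had at most 32 counts per library.

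Ltc4s, the synthase of cysteinyl leukotrienes, had 10.3, 10.7, 17.3, 11.8 and 11.5 CPM in labelled-deleted tumours and 14.5, 16.9, 11.5, 22.6 and 30.1 CPM in wild-type tumours. Wild-type tumours 4 and 5 were the highest, and the groups overlapped through labelled-deleted tumour 3 and wild-type tumour 3. The log2 fold change was -0.63 (SE 0.26; edgeR adjusted p = 0.759), or -0.40 without wild-type tumour 5. The sources used here do not say if reads were assigned by strand. Of Ltc4s, 268 exon bases overlap the antisense gene Gm26542, which had at most 9 counts per library.

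Alox5, 5-lipoxygenase itself, had 7.92, 15.3, 21.2, 24.0 and 19.0 CPM in labelled-deleted tumours and 18.3, 26.6, 22.4, 22.8 and 22.9 CPM in wild-type tumours. The wild-type tumours were close to each other, and labelled-deleted tumour 1 was lowest of all 10. Its log2 fold change was -0.37 (SE 0.25; edgeR adjusted p = 0.760), -0.19 without that tumour and -0.08 without labelled-deleted tumours 1 and 2. Lta4h, which makes leukotriene B4, was the steadiest of the 10 genes, from 62.9 to 76.6 CPM in labelled-deleted tumours and from 67.8 to 87.2 CPM in wild-type tumours. The log2 fold change of Lta4h was -0.05 (SE 0.09; edgeR adjusted p = 0.906).

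Alox15 encodes the mouse lipoxygenase best known from resident peritoneal macrophages and eosinophils. It had 1.60, 35.8, 10.3, 20.7 and 26.0 CPM in labelled-deleted tumours and 26.4, 14.2, 23.2, 27.5 and 30.3 CPM in wild-type tumours. The labelled-deleted tumours included both the lowest and the highest value of the 10, a span of 22.4-fold, the widest of the 10 genes. Its log2 fold change of -0.36 (SE 0.58; edgeR adjusted p = 0.881) was -0.07 without labelled-deleted tumour 1 and -0.72 without labelled-deleted tumour 2. The summed markers of large peritoneal macrophages spanned 77.9 to 164 CPM in labelled-deleted tumours and 132 to 174 CPM in wild-type tumours. Labelled-deleted tumour 1 was lowest, and Timd4 was at 0 in wild-type tumour 2. In every tumour but labelled-deleted tumour 1, F5 and Gata6 carried most of this sum. Prg4 went the other way, with its highest value, 36.0 CPM, in labelled-deleted tumour 1. The part of large peritoneal macrophages in the Alox15 values was not tested.

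Among the prostaglandin genes, Ptges, the inducible prostaglandin E synthase, had 152, 89.3, 46.7, 65.1 and 46.7 CPM in labelled-deleted tumours and 36.7, 53.7, 43.9, 34.9 and 43.2 CPM in wild-type tumours. All 5 labelled-deleted tumours were above the wild-type mean of 42.5 CPM, and 3 of them were above the highest wild-type tumour. The log2 fold change was 0.91 (SE 0.32; edgeR adjusted p = 0.759), and the exact two-sided permutation test gave an unadjusted p of 0.0397. Labelled-deleted tumour 1 set much of the size, which was 0.55 without it and 0.32 without labelled-deleted tumours 1 and 2.

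Ptgs1, the constitutive cyclooxygenase, had 129, 107.5, 62.9, 117 and 74.6 CPM in labelled-deleted tumours and 66.4, 106, 68.0, 69.7 and 70.7 CPM in wild-type tumours. Values fell into a higher set, labelled-deleted tumours 1, 2 and 4 with wild-type tumour 2, and a lower set of the other 6 tumours. The log2 fold change was 0.37 (SE 0.21; edgeR adjusted p = 0.759), 0.16 without labelled-deleted tumours 1 and 2, and 0.50 without wild-type tumour 2. Gm43621, on the opposite strand, shares 148 exon bases with Ptgs1 and had at most 39 counts per library. Platelets carry Ptgs1, and their 7 summed markers spanned 28.4 to 52.8 CPM in labelled-deleted tumours and 25.8 to 38.07 CPM in wild-type tumours, with Gp9 and Gp6 at 0 in part of the libraries. Labelled-deleted tumour 3 had the highest platelet sum and the lowest Ptgs1. That sum held 20.3 CPM of Itga2b, against at most 11.0 CPM in wild-type tumours. Pf4 was the largest part of the platelet sum in every tumour. In labelled-deleted tumour 3 it was at 27.5 CPM, under the 29.9 CPM of labelled-deleted tumour 2. Gp9, Gp1ba, Gp5 and Gp6 were each at most 1.11 CPM in any tumour. The part of platelets in the Ptgs1 values was not tested.

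Ptgs2, the inducible cyclooxygenase, had 38.35, 48.0, 29.8, 16.6 and 32.0 CPM in labelled-deleted tumours and 45.1, 13.5, 23.0, 44.0 and 15.6 CPM in wild-type tumours. Each group held high and low tumours. The log2 fold change was 0.22 (SE 0.39; edgeR adjusted p = 0.894), and -0.12 (SE 0.45; edgeR adjusted p = 0.998) without labelled-deleted tumours 1 and 2. Ptger4, a prostaglandin E2 receptor that raises cyclic AMP, spanned 27.0 to 46.1 CPM in labelled-deleted tumours and 28.2 to 48.9 CPM in wild-type tumours, with a log2 fold change of -0.27 (SE 0.20; edgeR adjusted p = 0.762), or -0.43 without labelled-deleted tumour 3 and -0.13 without labelled-deleted tumours 1 and 2. On the opposite strand, 82 exon bases of Ptger4 overlap Ttc33, which had 201 to 427 counts per library. Another 1015 overlap the pseudogene Gm15937, which had at most 3 counts per library. Exact permutation p-values of Alox5, Lta4h, Ltc4s, Alox15, Ptgs1, Ptgs2 and Ptger4 ran from 0.0952 to 0.611, unadjusted.

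With the tumour code of the titles as a block, a fit added after the data were seen that compares the groups within the 3 shared codes, edgeR called 0 genes and the differences of most of the 10 genes were smaller. Ptges then had a log2 fold change of 0.43 (SE 0.24) and Ptgs1 one of 0.06 (SE 0.23). Values were -0.39 (SE 0.20) for Alox5ap, -0.41 (SE 0.31) for Ltc4s, -0.24 (SE 0.12) for Alox5, -0.22 (SE 0.27) for Alox15 and -0.14 (SE 0.23) for Ptger4. Lta4h was at -0.08 (SE 0.11) and Ptgs2 at 0.32 (SE 0.36), both farther from 0 than without the block, and Ltb4r1 was at -1.23 (SE 0.33). Labelled-deleted tumours 1 and 4, each alone in its code, add nothing to this comparison.

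Levels of different genes were compared per kilobase of exon, scaled so that all genes of a library sum to the same total (TPM, computed here from the estimated counts). Alox5ap was the most abundant of the 10, at 136 ± 33.6 TPM (SD over 10 tumours). Ptgs1 followed at 72.4 ± 22.1, and Alox5ap exceeded it in 8 of 10 tumours. Ptges at 50.2 ± 29.8, Ltc4s at 49.5 ± 18.6 and Lta4h at 38.5 ± 3.64 TPM formed the middle. Alox15 was at 28.0 ± 12.9, Ptgs2 at 21.4 ± 9.01, Ptger4 at 17.5 ± 4.23, Alox5 at 15.7 ± 4.32 and Ltb4r1 at 11.7 ± 5.65 TPM. Apart from Alox5ap over Ptgs1, the difference between each gene and the next in this order was smaller than the larger of their SDs. Counted within tumours, Ptgs1 was above Ptges in 9 of 10 and Alox15 above Ptgs2 in 8 of 10. For the other neighbours the upper gene was above the lower in 4 to 7 of 10 tumours. Between the groups, Ptges had rank 3 in labelled-deleted tumours, at 66.0 TPM, and rank 5 in wild-type tumours, at 34.4 TPM. With the longest transcript as length, 5 of the 10 genes kept their place, Alox5ap, Ptgs1, Ltc4s, Alox5 and Ltb4r1.

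**Figure D2:**
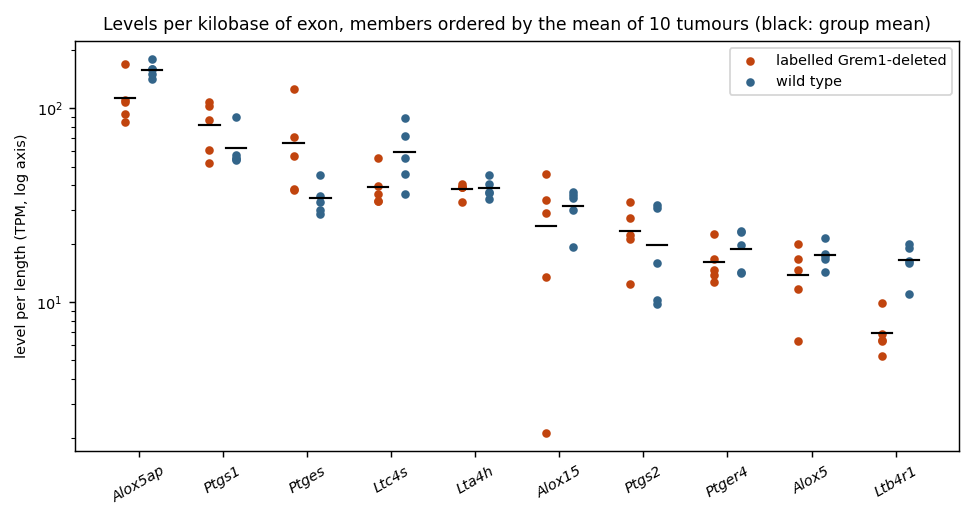
Level per kilobase of exon (TPM, log y axis) of the 10 genes, ordered by their mean over all tumours, with labelled-deleted tumours (orange) left of wild-type tumours (blue) and group means as black lines. Alox5ap is the highest at 136 and Ltb4r1 the lowest at 11.7, and a single Alox15 value, of labelled-deleted tumour 1, lies far below all other points.

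The genes were then compared in pairs over the 10 tumours. Across the 36 pairs that leave out Ltb4r1, 2 passed a permutation test of Pearson's r (100000 resamples, two-sided, adjusted p under 0.05 over all 45 pairs). Ptgs1 and Ptges were high in the same tumours, with r = 0.85 (permutation p = 0.00052, adjusted 0.0218) and Spearman's rho = 0.75 (permutation p = 0.0173, adjusted 0.129). Without labelled-deleted tumours 1 and 4, the farthest from the median of Ptgs1, r was 0.80. Alox5ap and Ptges were opposed, with r = -0.83 (permutation p = 0.00097, adjusted 0.0218) and rho = -0.87 (permutation p = 0.00207, adjusted 0.0466), and r was -0.76 without labelled-deleted tumours 1 and 2. Alox5ap and Ltc4s had r = 0.78 (permutation p = 0.00694, adjusted 0.0625) and rho = 0.87 (permutation p = 0.00205, adjusted 0.0466), and r was 0.70 without the same tumours.

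Not every relation lasted without the extreme tumours. Alox5 and Ptges had r = -0.80 (permutation p = 0.0185, adjusted 0.104) with rho = -0.26 (permutation p = 0.470, adjusted 0.786), and without labelled-deleted tumours 1 and 2 r was 0.50, so that relation rests on those tumours. All levels share the same scaling and the same tumours, whose cell makeup differs.

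Ltb4r1 was closest, of the other 9 genes, to Alox5ap. Their r over 10 tumours was 0.87 and rho 0.73, which hold the group difference for which Ltb4r1 was chosen and are given without a test. With group means removed r was 0.73 between Ltb4r1 and Alox5ap, -0.77 between Ltb4r1 and Ptgs1, and -0.41 between Ltb4r1 and Ptges. Among all genes tested, the 5 most like Ltb4r1 by Pearson's r of log2 CPM over 10 tumours were B3gat3 (r = 0.96), Gm10418 (0.95), Gng10 (0.93), 2010315B03Rik (0.93) and Ap2s1 (0.92). Their r with group means removed was 0.83, 0.83, 0.92, 0.75 and 0.82 in the same order. B3gat3, a glycosaminoglycan linker enzyme, differed little between groups, at a mean of 44.6 CPM in labelled-deleted tumours and 50.3 CPM in wild-type tumours. Alox5ap had rank 21 in this order, and Ptges and Ptgs1, at ranks 16128 and 16134, were near the opposite end.

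Macrophages are a known source of Alox5ap, Alox5, Ltc4s and Ltb4r1, so their markers were set beside these genes. All 10 macrophage markers had a negative log2 fold change (median -0.52), the smallest being -0.004 (SE 0.15) for Cd68. Over all genes tested, 7444 of 16565 were negative. The same direction was found for all 7 endothelial markers (median -0.43) and 7 of 8 epithelial markers (median -0.44). All 8 T cell and all 5 B cell markers were positive, with the highest sums of both lists in labelled-deleted tumour 3 (108 and 251 CPM). The median T cell sum was 14.5 CPM in labelled-deleted tumours, below the 19.3 CPM of wild-type tumours. For B cells it was 19.6 CPM, above 13.4 CPM. EdgeR called 0 of the 93 marker genes tested over 16 lists at an adjusted p of 0.05. Summed, the macrophage markers stood at 1755, 2559, 4478, 2878 and 3992 CPM in labelled-deleted tumours and at 5413, 3308, 3561, 5706 and 5161 CPM in wild-type tumours. No macrophage marker was at 0 in any library. The 3 lowest values of Alox5ap and of this sum were in the same tumours, labelled-deleted 1, 2 and 4. Much of the sum was 1 gene, Lyz2: without it the other 9 markers summed to 1371, 1328, 2081, 1592 and 1962 CPM in labelled-deleted tumours and to 2579, 1973, 1837, 3111 and 2603 CPM in wild-type tumours. The groups overlapped in both sums.

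**Figure D3:**
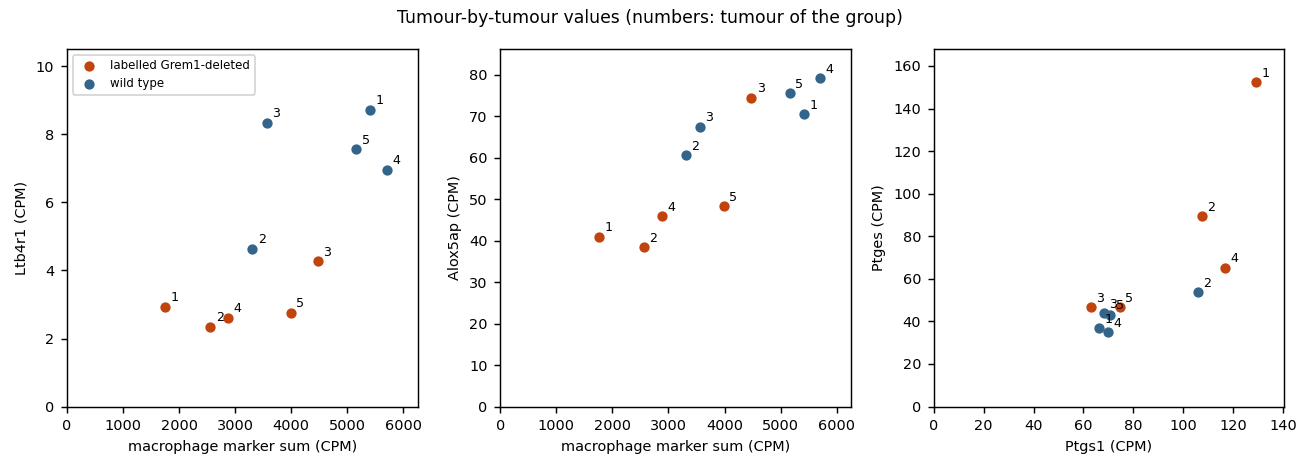
Ltb4r1 (left) and Alox5ap (middle) in CPM against the summed CPM of 10 macrophage markers, and Ptges against Ptgs1 in CPM (right), with 1 point per tumour numbered within labelled-deleted (orange) and wild-type (blue) groups and all axes from 0. The macrophage sums of the groups overlap, the groups of Ltb4r1 are apart because the gene was chosen for that, and the right panel shows labelled-deleted tumours 1, 2 and 4 with wild-type tumour 2 apart from the rest.

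Neutrophils are the classical carriers of the leukotriene B4 receptor. Their 11 summed markers spanned 180 to 339 CPM in labelled-deleted tumours and 227 to 534 CPM in wild-type tumours, with Ly6g and Ngp at 0 in part of the libraries. Mmp9 and Ltf carried most of this sum, and the other 9 markers summed to 29.1 to 120 CPM in labelled-deleted tumours and 46.6 to 140 CPM in wild-type tumours. Labelled-deleted tumour 1 had the largest sum of its group over all 11 markers, with 261 CPM of Mmp9, and the smallest sum of all tumours over those 9. The neutrophil receptor gene Csf3r had 4.27 to 30.7 CPM in labelled-deleted tumours and 11.1 to 44.8 CPM in wild-type tumours. Of the 9 neutrophil markers tested, 3 had a positive and 6 a negative log2 fold change (median -0.14). They ran from -1.05 (SE 0.43) for Ltf to 0.73 (SE 0.49) for Mmp8, with Csf3r at -0.75 (SE 0.52). Eosinophil markers spanned 8.45 to 68.0 CPM in labelled-deleted tumours and 51.0 to 86.6 CPM in wild-type tumours, most of it Ear2, with Epx at or near 0 in every library. Of the 3 tested, Ear2 (-0.68, SE 0.51) and Siglecf (-1.21, SE 0.71) were lower, and Il5ra (1.61, SE 0.43; edgeR adjusted p = 0.759) was higher in labelled-deleted tumours. Prg2 and Ear1, too low to test, also had higher means there, 0.62 against 0.14 CPM and 1.52 against 0.17 CPM. Mast cell markers spanned 8.45 to 60.3 CPM in labelled-deleted tumours and 23.4 to 72.3 CPM in wild-type tumours, most of it Kit and Tpsab1. Of the 7 tested, 2 were positive and 5 negative, from -1.34 (SE 0.65) for Cpa3 to 0.73 (SE 0.63) for Hdc. Cma1, Fcer1a and Ms4a2 were at 0 in labelled-deleted tumour 1. Tuft cells, epithelial cells that carry Alox5, Alox5ap, Ltc4s and Ptgs1, had summed markers of 31.3 to 124 CPM in labelled-deleted tumours and 69.0 to 120 CPM in wild-type tumours, with Il25 at or near 0 in every library. Dclk1 and Avil carried most of this sum, with log2 fold changes of -0.25 (SE 0.29) and -0.71 (SE 0.35). Less abundant markers went the other way. Trpm5 was at 0.57 (SE 0.64), and Pou2f3, Sh2d6 and Il17rb, too low to test, had higher means in labelled-deleted tumours. Lymphocyte markers differed widely between tumours of 1 group: T cell sums spanned 4.27 to 108 CPM in labelled-deleted tumours and 5.37 to 36.1 CPM in wild-type tumours, and B cell sums 1.60 to 251 CPM in labelled-deleted tumours and 1.47 to 89.8 CPM in wild-type tumours. Dendritic cell sums spanned 5.25 to 59.3 CPM in labelled-deleted tumours and 16.03 to 36.2 CPM in wild-type tumours. Among the tissue's other cells, fibroblast sums spanned 5284 to 18560 CPM in labelled-deleted tumours and 10800 to 19200 CPM in wild-type tumours, and endothelial sums 165 to 625 CPM in labelled-deleted tumours and 302 to 650 CPM in wild-type tumours. Epithelial sums were 1925 to 5174 CPM in labelled-deleted tumours and 4744 to 6016 CPM in wild-type tumours. Acinar sums were 74.1 to 13390 CPM in labelled-deleted tumours and 12.7 to 17130 CPM in wild-type tumours, and mesothelial sums 220 to 336 CPM in labelled-deleted tumours and 131 to 472 CPM in wild-type tumours. The part of any of these cells in the values of the 10 genes was not tested.

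**Figure D4:**
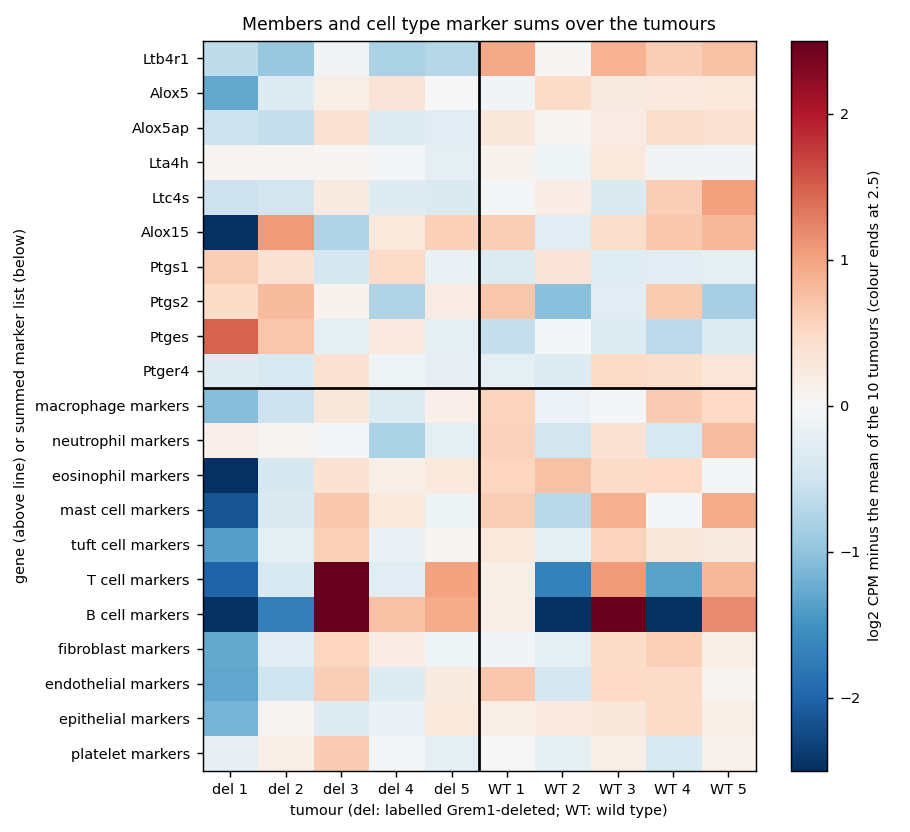
Log2 CPM of the 10 genes (above the line) and of summed cell type markers (below), each minus its mean over the 10 tumours (colour, ending at 2.5), with labelled-deleted tumours left and wild-type tumours right. Labelled-deleted tumour 1 is blue for Alox5, Alox15 and nearly all cell type sums and red for Ptges and Ptgs1.

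The wider pathway was read from 9 lists that hold 83 genes of the table, 63 of them tested. In edgeR 0 of them had an adjusted p under 0.05, with 29 positive and 34 negative log2 fold changes and a median of -0.01, against 0.03 over all genes tested. At an unadjusted p under 0.05, 2 were higher and, beside Ltb4r1, 5 were lower in labelled-deleted tumours, against 3.47% higher and 2.46% lower over all genes tested.

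Of the leukotriene receptors besides Ltb4r1, 2 were tested. Cysltr1, a receptor for cysteinyl leukotrienes, had 4.89, 8.23, 11.0, 7.37 and 12.1 CPM in labelled-deleted tumours and 19.8, 8.84, 11.2, 16.8 and 21.0 CPM in wild-type tumours. Its groups overlapped through wild-type tumours 2 and 3, and its log2 fold change was -0.83 (SE 0.30; edgeR adjusted p = 0.759), between -0.99 and -0.68 with any 1 tumour left out. Cysltr2 was at -0.01 (SE 0.37), between -0.16 and 0.24 with any 1 tumour left out, and Oxgr1 was at 0 counts in all 10 libraries. All 5 tested genes for the breakdown of leukotriene B4 were negative, from -0.34 for Ptgr1 to -0.13 for Cyp4f13, none past the test. Without labelled-deleted tumour 1, Ptgr1 was at -0.15 and Cyp4f13 at -0.04. The leukotriene synthesis list had 5 positive and 6 negative members. Its highest value, 1.19 (SE 0.81) for Ggt1, rested on the 89.6 CPM of labelled-deleted tumour 2, which also held intestinal markers, and was -0.17 without it.

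In prostaglandin synthesis 6 of 12 genes were positive and 6 negative. Tbxas1, thromboxane synthase, had 13.4, 28.2, 33.7, 27.2 and 36.7 CPM in labelled-deleted tumours and 57.9, 31.3, 36.33, 50.2 and 59.3 CPM in wild-type tumours. Labelled-deleted tumours 3 and 5 overlapped wild-type tumours 2 and 3, and the log2 fold change was -0.75 (SE 0.27; edgeR adjusted p = 0.759). Akr1b3, an aldo-keto reductase with prostaglandin F synthase activity, was at -0.19 (SE 0.08; edgeR adjusted p = 0.759), from 60.4 to 72.5 CPM in labelled-deleted tumours and from 68.3 to 82.0 CPM in wild-type tumours. Hpgds, the haematopoietic prostaglandin D synthase, was at -0.46 (SE 0.22), or -0.29 without wild-type tumour 5. The other prostaglandin E synthases Ptges2 and Ptges3 were at -0.04 (SE 0.12) and 0.04 (SE 0.07), next to 0.91 for Ptges.

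Prostanoid receptors had 2 positive and 6 negative log2 fold changes. Ptger3, a prostaglandin E2 receptor that lowers cyclic AMP, was at -0.86 (SE 0.43; edgeR adjusted p = 0.759), with 9.52, 34.6, 42.8, 32.1 and 51.4 CPM in labelled-deleted tumours and 106, 35.5, 36.2, 58.1 and 73.8 CPM in wild-type tumours. Wild-type tumour 1 was the highest, and leaving it out gave -0.58. Ptger2, which acts like Ptger4, was at -0.40 (SE 0.23). In transport and breakdown 4 of 7 were positive and 3 negative, and Zadh2, a prostaglandin reductase, was at 0.51 (SE 0.20; edgeR adjusted p = 0.759), and at 0.26 without labelled-deleted tumour 1, which held 102 CPM. The efflux pump Abcc4 was at -0.41 (SE 0.23), or -0.27 without labelled-deleted tumour 1. The degrading enzyme Hpgd was at 0.20 (SE 0.68), and at -0.22 without labelled-deleted tumour 2, which held intestinal markers.

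At the head of the pathway, 8 of 12 tested genes of arachidonate supply were positive and 4 negative. The cytosolic phospholipase Pla2g4a had 26.6, 43.1, 49.7, 55.4 and 56.3 CPM in labelled-deleted tumours and 64.6, 65.5, 62.4, 64.6 and 49.5 CPM in wild-type tumours. Every labelled-deleted tumour was below 4 of the 5 wild-type tumours, and the log2 fold change was -0.41 (SE 0.19; edgeR adjusted p = 0.759), or -0.26 without labelled-deleted tumour 1. The secreted phospholipases Pla2g2f and Pla2g2d were at 0.96 (SE 0.76) and 0.81 (SE 0.69). With any 1 tumour left out, Pla2g2f lay between 0.69 and 1.53, and Pla2g2d was at 0.26 without labelled-deleted tumour 3. Of the lipoxygenases other than Alox5 and Alox15, Alox12 was tested, at 0.04 (SE 0.52) and between -0.27 and 0.33 with any 1 tumour left out, and the epidermal Alox12b and Aloxe3 were too low. Of 5 tested receptors linked with the resolution of inflammation, 4 were positive and 1 negative: Lgr6 was at 0.48 (SE 0.27), Fpr1 at 0.45 (SE 0.25) and Cmklr1 at -0.26 (SE 0.27). Cmklr1 was at -0.11 without labelled-deleted tumour 1 and at 0.05 without labelled-deleted tumours 1 and 2.

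**Figure D5:**
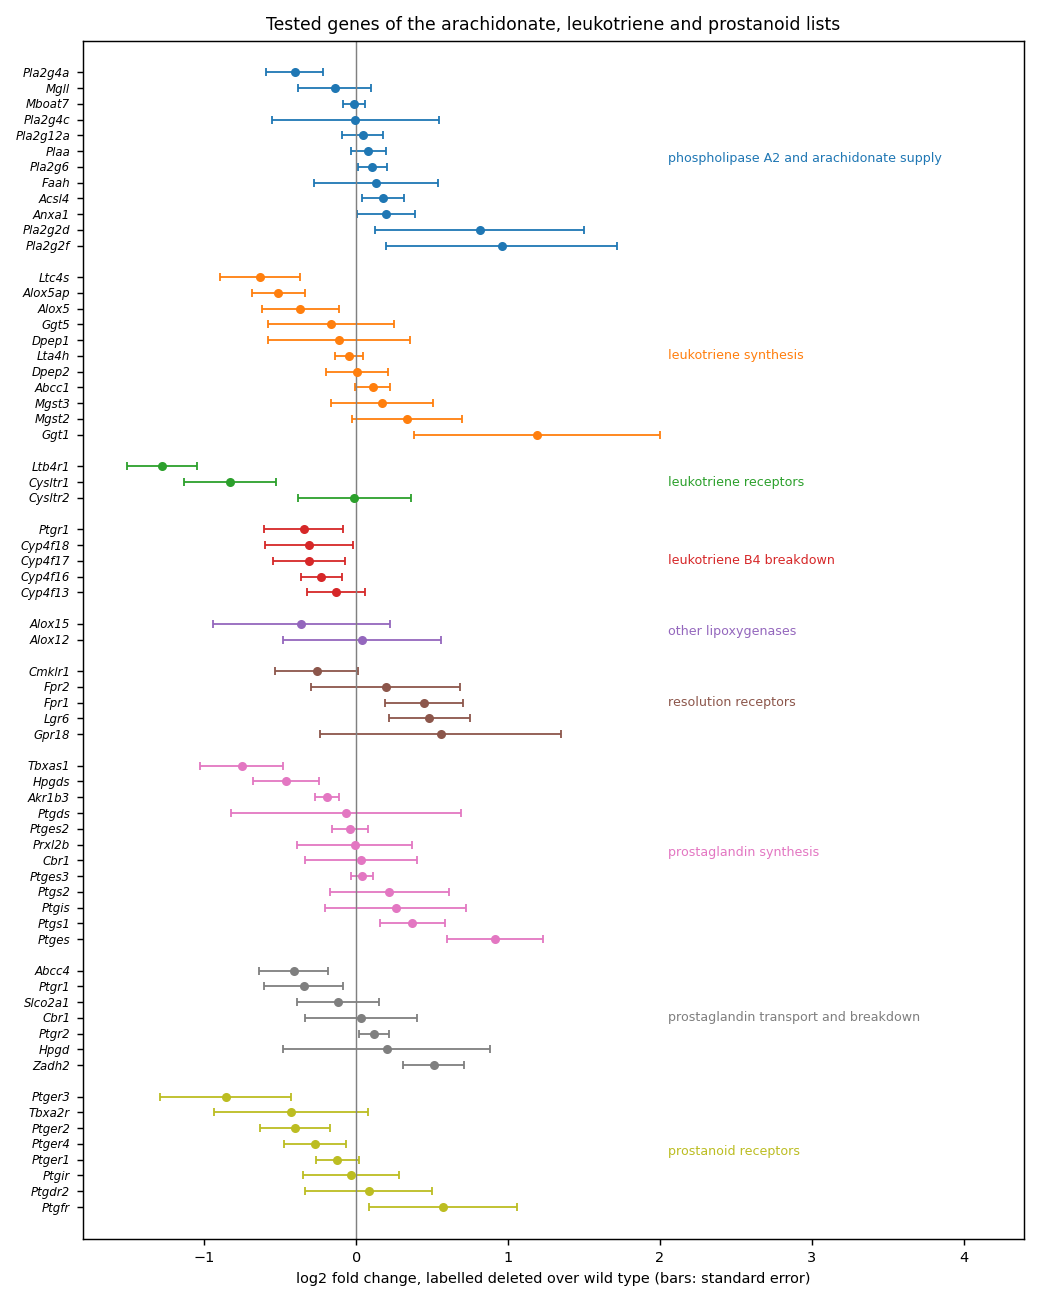
Log2 fold change of labelled-deleted over wild-type tumours (x axis, bars: SE) for the tested genes of the 9 lists, grouped and coloured by list, with genes in 2 lists shown in both. Ltb4r1 is lowest at -1.28 and Ggt1 highest at 1.19, and Alox5ap, Ltc4s, Cysltr1 and Tbxas1 lie left of 0 while Ptges lies right of it.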

How the data were processed

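Polyadenylated RNA of 10 tumours was sequenced on an Illumina NovaSeq instrument. One table, as deposited, holds estimated counts for all tumours; the authors' other files hold 25407 genes per tumour as normalized log2 values of unnamed transformation. The submitters' processing notes name RSEM 1.3.3, HISAT2 2.2.1, DESeq2 1.32.0 and build mm10, and no strand setting or annotation release. An estimated count shares reads between similar genes, and 7.96% of values were not whole.

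Counts were rounded, filtered (filterByExpr, minimum count 10) and scaled by TMM. Groups were compared with the quasi-likelihood F test of edgeR 4.0.16 over 16565 genes, with Benjamini-Hochberg adjustment. Log2 CPM has a prior count of 2. Exact permutation used all 252 assignments, whose smallest p is 0.00794. Lengths and coordinates are from GENCODE M21 (GRCm38). Promoters are from RefSeq. Alternatives used DESeq2 1.42.0, limma 3.58.1, other scalings and filters, a replicate block, the titles' tumour code as a block, the deposited log2 values and left-out tumours. R was 4.3.3, scipy 1.17.1. The biological coefficient of variation was 0.355. Libraries of the same group all differed by more than sampling noise (lowest chi-square per degree of freedom 25.9). The edgeR step was tested on simulated data over 16353 genes, with 2.75% false calls. The genes, the 9 pathway lists and the 16 marker lists were chosen with earlier results of these data known. Besides the 10 genes, the text names Grem1, up to 3 genes per list with the smallest p, the 5 genes most like Ltb4r1 and genes overlapping a member. Others (Ltb4r2, Oxgr1, Hpgds, Ptges2, Ptges3, Hpgd, Pla2g2d, Cyp4f13, Alox12b, Aloxe3 and the markers) were named after their values were seen.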

Additional observations from a re-analysis of the deposited data

Results flagged for a closer look

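In 60 groups of 5 tumours (30 genes in both groups), 9 held a tumour far from the other 4 by Dixon's ratio of log2 CPM, where chance flags about 1 in 20, or 3. Among the members, Ltc4s stood at 17.3 CPM in labelled-deleted tumour 3, against 10.3 to 11.8 CPM in the rest of that group, and Ptgs1 at 106 CPM in wild-type tumour 2, against 66.4 to 70.7 CPM. In labelled-deleted tumour 1, Ptgr1 was at 20.1 CPM (51.8 to 66.8 in the others), Pla2g2f at 0.089 CPM (1.78 to 3.90) and Ptger3 at 9.52 CPM (32.1 to 51.4). Lgr6 was at 18.7 CPM in labelled-deleted tumour 3 (42.7 to 47.0 in tumours 1, 4 and 5, and slightly lower in tumour 2). In wild-type tumours, Cysltr2 was at 2.52 CPM in tumour 1 (1.21 to 1.46), while in tumour 5 Alox12 was at 1.61 CPM (2.14 to 2.37) and Pla2g4a at 49.5 CPM (62.3 to 65.5).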

How the results depend on the processing

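Under 20 alternatives the other 9 genes were never past an adjusted p of 0.05 (180 values, lowest adjusted p 0.507). With DESeq2, 7 genes were called, against 0 in edgeR; the 1 member and pathway gene among them was Ltb4r1, by the call that had chosen it. Ltb4r1 kept a negative log2 fold change throughout, between -1.45 and -1.20 with 1 tumour left out, and -0.73 with the deposited log2 values, where the cause was not tested. Its groups did not overlap, so leaving out a tumour could not turn the sign, and the kept sign supports nothing. Signs turned for Lta4h, between -0.0905 and 0.0168 with 1 tumour left out (positive without wild-type tumour 3), and Ptgs2, -0.12 without labelled-deleted tumours 1 and 2. Counts of genes, members and pathway genes called were 0 with any 1 tumour left out. With the longest transcript 5 of 10 genes kept their place by level, since lengths change. Of the 36 pairs without Ltb4r1, 2 passed with Spearman's rho, chosen after seeing the data, and 2 with Pearson's r. A replicate block also called 0 genes. Same-numbered deviations from the group means correlated from -0.02 to 0.39, and 4 of 10 libraries were best matched by their own number. The correlation was highest for the pairs numbered 3 (0.32) and 5 (0.39), the only same-numbered pairs that share a title code. These values do not settle whether the numbers pair tumours. Ltb4r1's low counts and 5 tumours a group limit precision.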
